A study of Mus musculus with 6 samples.

Results

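The collagen and extracellular matrix genes of HL-1 cells were examined after knockdown of the long noncoding RNA Malat1. The HL-1 line stems from cardiomyocytes of the mouse atrium. The genes were chosen by name and level. A protein-coding gene entered if its symbol was that of a collagen, laminin, Adamts or Mmp gene, or was Fn1, Fbn1, Fbn2, Sparc, Postn, Dcn, Lum, Bgn, Vcan, Tnc, Eln, Nid1 or Nid2, and if its mean over the 6 libraries was at least 5 normalized counts. The table of 21269 genes held 95 genes with such names, of which 72 reached the mean and are called matrix genes here. The other 23 lay below it. The whole table had 15650 genes at or above that mean. One of the 72, Col4a3bp, carries the symbol of a collagen but encodes a ceramide transfer protein, which left 71 genes of the matrix itself. It was level, at 565 to 630 normalized counts in LNA Control and 578 to 637 in LNA Malat1. A further 21 genes of the role lists, among them Tnc, Dcn and Lum, were not listed in the table used here.

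The cells were transfected with 50 nM of a control gapmer (LNA Control) or of a gapmer against Malat1 (LNA Malat1), 24 hours after seeding, and RNA was taken 48 hours later, with 3 libraries per group. Gapmers pair with an RNA through a DNA core flanked by locked nucleic acids and so expose it to cutting by RNase H. All dishes in both groups were coated with gelatin and human fibronectin, so that the cells lay on matrix proteins they had not made. HL-1 is a single immortalized line, and the labels do not say whether the replicates were separate cultures, so the p-values measure the spread between these libraries, which may be technical.

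The extracellular matrix is the protein scaffold around cells. Fibrillar collagens assemble from 3 chains into tension-bearing fibrils, whereas basement membranes are sheets of collagen IV and laminin networks joined by nidogen and perlecan. Fibril-associated collagens, proteoglycans and glycoproteins decorate these structures, and metalloproteinases of the MMP and ADAMTS families process or degrade them. In the heart, fibroblasts are the best known source of fibrillar collagen, and each cardiomyocyte is wrapped in a basement membrane.

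Malat1 itself stood at 5051, 5197 and 4369 normalized counts in the control libraries. With the Malat1 gapmer it was 2833, 2792 and 2732, which is 57.2% of the control mean. Recovered reads on genes ranged from 4512253 to 5592995 per library. LNA Malat1 replicates 1 and 3 differed by no more than the sampling noise (chi-square of 0.949 per gene). Replicates 1 and 2 were not told apart from that noise either (1.012 per gene, chi-square p = 0.15), while 2 and 3 differed more (1.163). Replicates 1 and 3, the closest pair, were to be counted as 1 sample in any mean ± SD. Values of each library are therefore given in place of a mean ± SD for LNA Malat1. Percentages of control, values per kilobase, lines in the figures and the main fit still count all 3 LNA Malat1 libraries. LNA Control replicates 1 and 3 were the pair farthest apart (chi-square of 4.179 per gene). Replicate 1 was the highest control library for 27 of the 47 matrix genes with a mean of at least 50. The defining heart muscle genes Ryr2, Tnnt2, Actc1 and Tnni3 were all present, at 2237 to 2706 normalized counts for Ryr2. Myh6, the atrial and adult ventricular myosin heavy chain, was at 0 to 7, Myl7 was at 18 to 32, and Nppa was not listed in the table used here.

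Because matrix genes are also markers of other heart cells, the marker lists were read beside them. Of 10 fibroblast markers, 6 were listed and none was called. Their sum was 6803 to 7774 in the controls and 6162 to 6379 after knockdown, and it consisted mostly of Col1a1, Col3a1 and Ddr2. The fibroblast gene Mfap5 was at 0 to 7, and Tcf21, Thy1, Dpt and Dcn were not listed. Pdgfra was present, at 43, 42 and 48 and then at 34, 30 and 35 (limma adjusted p = 0.074). Gsn went from 287, 289 and 251 to 198, 211 and 235 (log2 fold change -0.36, adjusted p = 0.0057). Of the listed fibroblast markers, Gsn and Col3a1 fell by the adjusted p alone. The endothelial sum (4 of 8 genes listed) was 80 to 87 and 85 to 91, and the epicardial sum (4 of 5) was 17 to 18 and 25 to 32. The smooth muscle sum (6 of 8) was 1527 to 1683 and 1565 to 1716. Within it Cnn1 rose by the adjusted p alone, from 115, 106 and 116 to 149, 148 and 148 (log2 fold change 0.40, adjusted p = 0.0035). Of the heart muscle genes, Tnnt2 rose by that measure (log2 fold change 0.15, adjusted p = 0.034). Of 6 macrophage markers only Cd68 and Csf1r were listed. Both were called higher, and their sum went from 32 to 36 up to 54 to 81. Both have a mean under 50, a level at which 18.1% of all genes were called higher. Whether any of these shifts has a part in the matrix results was not tested. In bulk RNA, fewer cells of a type and less RNA per cell cannot be told apart.

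A gene was called when limma's adjusted p over all 15650 genes was at most 0.05 and the fold change was at least 1.5. Fold changes are of the normalized count + 1 on the log2 scale, LNA Malat1 over LNA Control, which understates the change of low genes. Of the 72 matrix genes, 12 were called higher and 4 lower, or 22.2%, against 10.9% of all genes tested. The share called higher was 8.00% of all genes and the share called lower 2.92%. The matrix genes are all protein-coding by the rule. Of the 12320 protein-coding genes tested, 739 were called higher and 429 lower (9.48%), with a median log2 fold change of -0.02. With the adjusted p alone, 16 matrix genes rose and 14 fell, against 14.3% and 14.03% of all genes (28.3% in all). Their median log2 fold change was 0.03, with 39 above zero and 33 below, and that of all genes was 0.02. The libraries of LNA Control and LNA Malat1 did not overlap for 35 of the 72 (48.6%), against 41.3% of all genes and 44.3% of protein-coding genes. Under quantile normalization the matrix genes split into 9 called higher and 7 called lower.

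The calls differed with the level of the genes. Among the 25 matrix genes with a mean under 50, 9 were called higher and 1 lower, where the background was 18.1% and 2.09%, and their median log2 fold change was 0.49 against 0.31 for all genes of that level. Among the 47 with a mean of at least 50, 3 were called higher and 3 lower, against 3.05% and 3.33% (6.38% in all), and the median was -0.05 against -0.03. With the adjusted p alone, 7 of these 47 rose and 13 fell, against 12.2% and 19.7%. None of the 21 matrix genes with a mean of at least 500 was called, a level at which 2.56% of all genes were. Across the 72 genes, log2 mean level and log2 fold change had a Pearson's r of -0.43, and across all 15650 genes it was -0.39, as a description only, since all genes come from the same 6 libraries. Lamc3, Adamts14, Col27a1 and Mmp24 reached the mean of 5 through LNA Malat1, their control means being under 5. Of the 4, 2 were called, Lamc3 and Adamts14, and both are part of the counts called higher. Just inside the minimum lay Mmp24 with a mean of 5.5 and Col27a1 with 6, and just outside it Col5a1 with 4.33 and Mmp8 with 4.17.

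**Figure D1:**
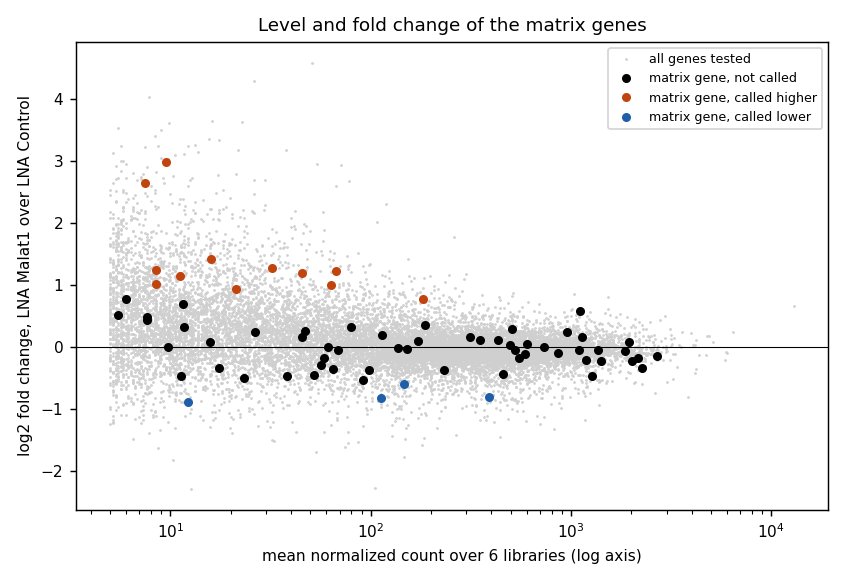
Log2 fold change of normalized count + 1 (LNA Malat1 over LNA Control) against the mean normalized count over the 6 libraries on a log axis. Small grey points are all 15650 genes tested and large points the 72 matrix genes, colored by call. The called matrix genes spread to the left, at low level, and the 21 matrix genes with a mean of at least 500 hold none, where 2.56% of all genes of that level were called.

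The matrix genes were a small share of the RNA. The 72 genes summed to 34969, 32804 and 30585 normalized counts in LNA Control, which was 0.714%, 0.667% and 0.633% of each library. In LNA Malat1 they summed to 31613, 30274 and 31386, or 0.664%, 0.636% and 0.66%. The groups overlapped. Per kilobase of exon, the scale on which genes can be compared, the highest control levels were those of Col4a1 (376), Sparc (366), Col1a1 (333), Col4a2 (288), Col4a5 (283), Lamc1 (278) and Col3a1 (257). Of these 7 genes, 4 encode basement membrane chains, and Sparc encodes a collagen-binding glycoprotein. Several usual partner chains were near zero. Col1a2, which pairs with Col1a1 in type I collagen, was at 0 or 1 in every library, Nid1 at 0 to 2, Lama1 at 0 to 3, Lama2 at 0 to 3, and the gelatinase Mmp2 at 0 to 4.

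**Figure D2:**
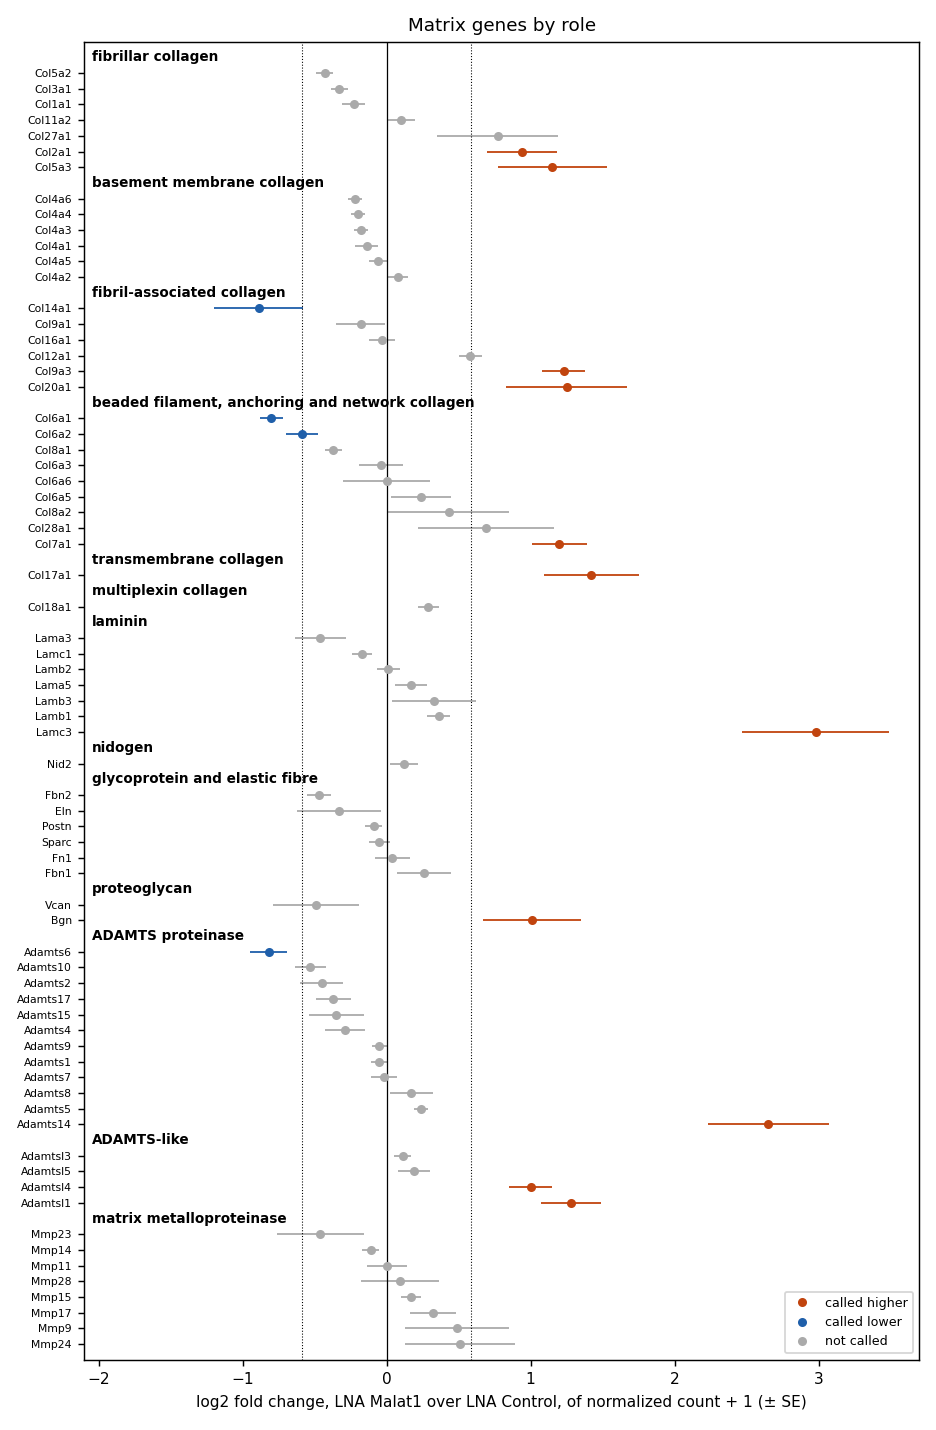
Log2 fold change of normalized count + 1 for 70 genes of the matrix, grouped by role. Points are the limma estimates from 3 libraries per group, bars are ± SE, and dotted lines mark a fold change of 1.5. Red points were called higher and blue points called lower. The points farthest right are Lamc3 (2.98) and Adamts14 (2.65), with wide bars. Both reached the mean of 5 through LNA Malat1 alone.

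The sequence before the start sites was read for short promoter motifs. RefSeq promoters (GRCm38.p6) were matched by symbol for 46 of the 72 genes, with 52 start sites, and the 250 bases before each start were searched on both strands, with overlapping matches counted separately. The GC box GGGCGG was present in 61.5% of the 52 member promoters (32 of 52) and in 32.7% of all 32851 promoters. The CCAAT box CCAAT was in 25.0% and 33.8%, the TATA box TATAAA in 9.6% and 12.4%, and the AP-1 site TGANTCA in 1.9% and 6.7%. The 32851 promoters were not limited to genes expressed in these cells, as the members were by their mean. A comparison with expressed genes alone was not made. A match is a stretch of letters, not a site shown to be bound. The sequences below are those of called genes whose RefSeq start equals the start in the table and whose 250 bases hold no annotated exon. They run 5′ to 3′ toward the gene, with motif matches on either strand in capitals. Col6a2 was called lower and the other genes higher.
Col6a2, chr10:76623631-76623880, minus strand: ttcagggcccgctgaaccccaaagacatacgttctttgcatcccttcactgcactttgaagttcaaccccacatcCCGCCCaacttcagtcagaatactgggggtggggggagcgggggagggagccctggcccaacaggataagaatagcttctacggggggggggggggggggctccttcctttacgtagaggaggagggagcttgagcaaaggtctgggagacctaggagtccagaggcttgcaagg
Col7a1, chr9:108953336-108953585, plus strand: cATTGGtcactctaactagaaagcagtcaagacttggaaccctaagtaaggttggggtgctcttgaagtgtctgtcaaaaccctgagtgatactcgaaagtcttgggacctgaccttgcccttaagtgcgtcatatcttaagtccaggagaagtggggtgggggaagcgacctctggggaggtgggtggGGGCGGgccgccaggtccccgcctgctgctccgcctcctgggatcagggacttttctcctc
Adamtsl4, chr3:95687918-95688167, minus strand: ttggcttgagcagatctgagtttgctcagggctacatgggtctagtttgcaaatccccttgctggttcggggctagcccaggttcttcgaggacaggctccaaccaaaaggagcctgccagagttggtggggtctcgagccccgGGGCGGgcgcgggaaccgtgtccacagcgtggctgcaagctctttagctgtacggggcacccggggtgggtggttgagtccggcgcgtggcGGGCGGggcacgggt
Col5a3, chr9:20815068-20815317, minus strand: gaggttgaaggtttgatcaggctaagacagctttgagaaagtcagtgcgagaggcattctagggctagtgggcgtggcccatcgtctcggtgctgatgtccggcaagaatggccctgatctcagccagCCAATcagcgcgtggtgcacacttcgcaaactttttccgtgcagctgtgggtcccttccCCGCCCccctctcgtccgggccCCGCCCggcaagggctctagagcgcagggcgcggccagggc
All 4 hold at least 1 GC box on one strand or the other, Adamtsl4 and Col5a3 hold 2, and Col7a1 and Col5a3 each hold 1 CCAAT box. That does not extend to called genes whose sequences are not printed. Col6a1, Col17a1 and Col20a1 hold no GC box, whereas Adamts14 holds 6 and Bgn 3.

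Among the 7 fibrillar collagens tested, 2 abundant chains fell by the adjusted p alone and 2 scarce chains were called higher. Col3a1, the chain of type III collagen, went from 2549, 2650 and 2376 in the controls to 2060, 2023 and 1952. Its groups did not overlap, and it fell by 0.33 on the log2 scale (SE 0.06, adjusted p = 0.0014), which is below the fold required for a call. Col5a2, a chain of collagen V, which regulates fibril diameter, fell from 487, 559 and 523 to 387, 404 and 368 (log2 fold change -0.43, SE 0.06, adjusted p = 0.00031), also under the fold minimum. Col1a1 was at 2486, 2171 and 1905 and then at 1922, 1794 and 1858, so that its groups overlapped (log2 fold change -0.23, SE 0.08, adjusted p = 0.055). Its adjusted p did not pass in 14 of 16 alternatives. It passed without LNA Control replicate 3 (-0.32, adjusted p = 0.0014) and with the replicate block (adjusted p = 0.019). The collagen V partner Col5a1 was too low to be tested, at 3 to 7. In contrast, Col2a1 (chr15:97975602-98004695), the collagen of cartilage, rose from 18, 12 and 13 to 31, 27 and 26 (log2 fold change 0.94, SE 0.24, adjusted p = 0.011). Its call was lost under quantile normalization (log2 fold change 0.59, adjusted p = 0.096) and without LNA Malat1 replicate 1 (adjusted p = 0.06). Col5a3 (chr9:20770050-20815067), the third chain of collagen V, was at 4, 12 and 5 and then at 18, 15 and 13 (log2 fold change 1.15, SE 0.38, adjusted p = 0.040). Every Malat1 library lay above every control library for both. The call of Col5a3 was lost in the fit without LNA Control replicate 1 or 3 and in each fit without a Malat1 library, and also with LNA Malat1 replicates 1 and 3 merged into 1 sample, with no filter and under quantile normalization (0.71, adjusted p = 0.18). Col11a2 (155 to 182 against 156 to 204) and Col27a1 (3 to 7 against 6 to 9) overlapped between the groups.

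All 6 collagen IV genes, the network collagens of basement membranes, were expressed, at means of 550 to 2674 normalized counts. None was called, and 3 of the 6 fell by the adjusted p alone. Of all 3205 genes with a mean of at least 500, 727 fell by that measure. The genes lie in head-to-head pairs that share a start region. Col4a6 fell from 1589, 1499 and 1477 to 1318, 1251 and 1348 (log2 fold change -0.22, SE 0.05, adjusted p = 0.0094). Its neighbor Col4a5 was at 1990, 1954 and 1759 and then at 1814, 1786 and 1859 (log2 fold change -0.06, adjusted p = 0.48). Col4a4 fell from 1272, 1292 and 1240 to 1135, 1055 and 1128 (log2 fold change -0.20, adjusted p = 0.013). Col4a3 fell by a like amount, from 553, 593 and 609 to 511, 506 and 526 (log2 fold change -0.18, adjusted p = 0.024). Its adjusted p did not pass in 8 of 16 alternatives, 5 of them with 1 library left out, and was 0.13 under quantile normalization. That of Col4a6 missed without LNA Malat1 replicate 2 (0.061), and that of Col4a4 without the same library (0.078) or LNA Control replicate 2 (0.057). The major pair did not pass. Col4a1 was at 3099, 2842 and 2480 and then at 2608, 2454 and 2559 (log2 fold change -0.14, adjusted p = 0.20). Its adjusted p did not pass in 15 of 16 alternatives, the exception being the fit without LNA Control replicate 3 (-0.22, adjusted p = 0.0047). Col4a2 was at 2066, 1943 and 1706 and then at 2073, 1952 and 2001 (log2 fold change 0.08, adjusted p = 0.42). Col4a1 and Col4a2 share 22 exon bases on opposite strands.

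Ratios within a library compare chains without any scaling between libraries. In all, 10 such pairs were chosen, with earlier results known, and an exact permutation test of 3 against 3 cannot go below p = 0.1, so no ratio could reach 0.05. The ratio of Col4a1 to Col4a2 was 1.5, 1.46 and 1.45 in the controls and 1.26, 1.26 and 1.28 after knockdown. The control values were all higher (exact two-sided p = 0.1, adjusted p = 0.14 over the 10 pairs). Col4a5 to Col4a6 went the other way, from 1.25, 1.3 and 1.19 to 1.38, 1.43 and 1.38, again without overlap. Col4a3 to Col4a4 overlapped, at 0.435, 0.459 and 0.491 and at 0.45, 0.48 and 0.466 (exact p = 0.9). Over all, 7 of the 10 ratios did not overlap between the groups, where 41.3% of all single genes tested did not. The pairs were chosen with earlier results known, so this count adds no support.

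**Figure D3:**
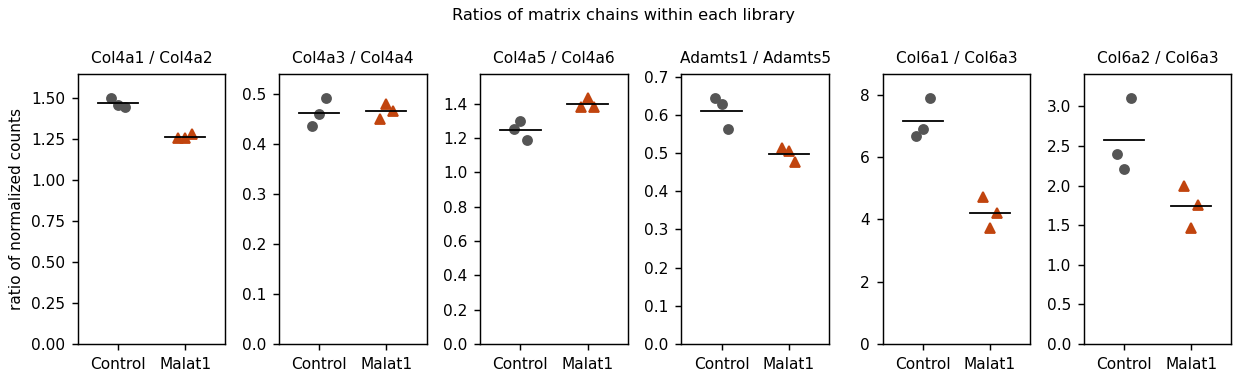
Ratio of normalized counts of paired matrix chains in each library, from 0 on each axis. Circles are the 3 LNA Control libraries, triangles the 3 LNA Malat1 libraries, and lines the mean of 3. Of the 6 ratios shown, only Col4a3 to Col4a4 overlaps between the groups.

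Laminins carry 1 alpha, 1 beta and 1 gamma chain. Lamc3 (chr2:31887291-31946539), a gamma chain, rose from 3, 0 and 2 to 18, 21 and 13 (log2 fold change 2.98, SE 0.51, adjusted p = 0.0010). Its log2 fold change rests on a few control counts and ranged from 1.75 with a pseudocount of 5 to 4.30 with one of 0.1. Lamc3 reached the mean of 5 through LNA Malat1, its control mean being under 5. Lamc1, the common gamma chain, was at 2564, 2264 and 2080 and then at 2096, 2007 and 2014 (log2 fold change -0.17, SE 0.07, adjusted p = 0.095). Its adjusted p did not pass in 14 of 16 alternatives. It passed without LNA Control replicate 3 (-0.24, adjusted p = 0.0055) and with the replicate block (adjusted p = 0.041). Lamc3 was at 0.00117, 0 and 0.000962 of Lamc1 in the controls and at 0.00859, 0.0105 and 0.00645 after knockdown, without overlap (exact p = 0.1, adjusted p = 0.14).

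None of the alpha and beta chains tested was called. Lama5 was the only well expressed alpha chain among those listed, and Lama4 was not listed, so its level is unknown. Lama5 was at 1304, 993 and 911 and then at 1216, 1046 and 1324 (log2 fold change 0.17, adjusted p = 0.29). Its adjusted p did not pass in 15 of 16 alternatives, the exception being the fit without LNA Control replicate 1 (0.32, adjusted p = 0.0035). Lama3 was at 36, 48 and 49 and then at 29, 32 and 34, lower in every Malat1 library but not past the test (log2 fold change -0.46, SE 0.18, adjusted p = 0.072). It was called lower in 2 of 15 alternatives, under quantile normalization (-0.68, adjusted p = 0.01) and without LNA Control replicate 1 (-0.60, adjusted p = 0.022). Lamb3 was at 13, 8 and 10 and then at 14, 13 and 12 (log2 fold change 0.33, SE 0.29, adjusted p = 0.44). Lamb1 rose from 153, 159 and 179 to 209, 220 and 200 (log2 fold change 0.36, SE 0.08, adjusted p = 0.0055) without reaching the fold minimum. Lamb2 was at 807, 752 and 628 and then at 757, 687 and 756 (log2 fold change 0.01, adjusted p = 0.91), and its sign turned in 4 alternatives. Nid2, the nidogen present, was at 386, 344 and 282 and then at 360, 342 and 390 (log2 fold change 0.12, adjusted p = 0.39). Some 8.45% of its exon bases overlap those of Rtraf on the other strand.

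Collagen VI forms beaded filaments at the border of basement membranes and 2 of its 3 main chains were called lower. Col6a1 (chr10:76708792-76726168) fell from 554, 469 and 457 to 284, 260 and 302, which was 57.4% of the control mean on the fitted scale. Its log2 fold change was -0.80 (SE 0.08, adjusted p = 1.5e-05), and it was called lower in all alternatives tried. Col6a2 (chr10:76595762-76623630), which lies nearby on the same strand, fell from 199, 150 and 180 to 120, 102 and 127 (log2 fold change -0.59, SE 0.11, adjusted p = 0.0021). That fold is at the minimum, and the call was lost without LNA Control replicate 1, LNA Control replicate 3 or LNA Malat1 replicate 2, with a pseudocount of 5, under quantile normalization and with voom. The adjusted p stayed at 0.016 or less in each of these 6 fits. The alpha 3 chain did not move with them. Col6a3 was at 83, 68 and 58 and then at 60, 70 and 72 (log2 fold change -0.04, adjusted p = 0.87). The ratio of Col6a1 to Col6a3 went from 6.67, 6.9 and 7.88 to 4.73, 3.71 and 4.19, and that of Col6a2 to Col6a3 from 2.4, 2.21 and 3.1 to 2, 1.46 and 1.76 (exact p = 0.1 for each, adjusted p = 0.14). Col6a5 (20 to 28 against 26 to 32) and Col6a6 (8 to 11 against 9 to 11) were low and overlapped.

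Among the other network collagens, Col7a1 (chr9:108953586-108984875), which builds the anchoring fibrils below epithelia, rose from 26, 23 and 32 to 72, 67 and 51 (log2 fold change 1.20, SE 0.19, adjusted p = 0.00051). Col8a1, a short-chain collagen of vessel walls and the subendothelium, fell from 262, 265 and 254 to 207, 204 and 192 (log2 fold change -0.37, adjusted p = 0.0011), below the fold minimum. Col8a2 (3 to 10 against 7 to 11) and Col28a1 (3 to 16 against 9 to 18) overlapped. Col17a1 (chr19:47646344-47692094), a transmembrane collagen of hemidesmosomes, rose from 5, 9 and 11 to 27, 28 and 16 (log2 fold change 1.42, SE 0.33, adjusted p = 0.0072). It was higher in every Malat1 library. Col18a1, the basement membrane collagen whose end fragment is endostatin, rose from 470, 469 and 432 to 612, 512 and 557 (log2 fold change 0.29, adjusted p = 0.0072) and stayed under the fold minimum. Col6a1 and Col18a1 were at a ratio of 1.18, 1 and 1.06 in the controls and of 0.464, 0.508 and 0.542 after knockdown.

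The fibril-associated collagens went in both directions. Col9a3 (chr2:180597790-180622189), a chain of collagen IX, which coats cartilage fibrils, rose from 46, 39 and 35 to 100, 83 and 101 (log2 fold change 1.23, SE 0.15, adjusted p = 6.1e-05). Col9a1 was at 64, 48 and 76 and then at 53, 53 and 57 (log2 fold change -0.18, adjusted p = 0.45), and Col9a2 was at 1 to 6, below the test. Thus 1 of the 3 chains of collagen IX was called. Of the exon bases of Col9a3, 6.07% overlap Tcfl5 on the opposite strand. Col20a1 (chr2:180986535-181018363), a low fibril-associated collagen, was at 5, 8 and 2 and then at 11, 12 and 13 (log2 fold change 1.25, SE 0.42, adjusted p = 0.041). Col14a1 (chr15:55307750-55520803), which links fibrils in tendon and skin, was at 13, 17 and 18 and then at 6, 11 and 8 (log2 fold change -0.89, SE 0.31, adjusted p = 0.049). Col20a1 lost its call without LNA Control replicate 3 or any 1 Malat1 library, and Col14a1 without LNA Control replicate 2 or 3 or LNA Malat1 replicate 1 or 3. Both lost it with a pseudocount of 0.1, with no filter and with LNA Malat1 replicates 1 and 3 merged, and Col20a1 also under quantile normalization (0.80, adjusted p = 0.19). Col12a1, a large fibril-associated collagen, was the most abundant of this class and rose from 1055, 845 and 794 to 1332, 1349 and 1311 (log2 fold change 0.58, SE 0.08, adjusted p = 0.00032). Its fold lay just under the minimum, and it was called without LNA Control replicate 1, without LNA Malat1 replicate 3, under quantile normalization and with voom. Col16a1 was level (146 to 161 against 141 to 165).

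**Figure D4:**
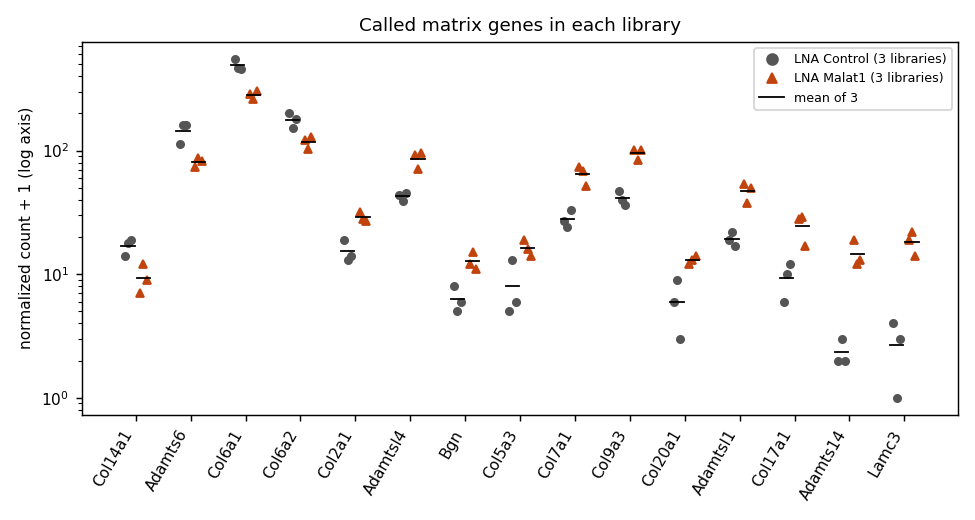
Normalized count + 1 of 15 called matrix genes in each library, on a log axis, ordered by log2 fold change. Circles are LNA Control, triangles are LNA Malat1 and lines are means of 3. For each gene the 3 libraries of one group lie wholly above or below the 3 of the other. The genes shown were picked because they were called, so this adds no support.

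The glycoproteins and elastic fiber genes held no call. Sparc was at 1465, 1462 and 1230 and then at 1363, 1354 and 1285 (log2 fold change -0.05, adjusted p = 0.62), and its sign turned under quantile normalization. Fibronectin, Fn1, was at 619, 432 and 421 and then at 515, 438 and 546 (log2 fold change 0.04, adjusted p = 0.83). Postn, which encodes periostin, was at 832, 857 and 975 and then at 800, 861 and 838 (log2 fold change -0.09, adjusted p = 0.32). The microfibril gene Fbn2 moved. It fell from 1672, 1430 and 1338 to 1056, 983 and 1157 (log2 fold change -0.47, SE 0.08, adjusted p = 0.0010), short of the fold minimum. Fbn1 was low by comparison, at 37 to 51 and 41 to 63, and elastin, Eln, was at 16 to 22 and 11 to 22. Among proteoglycans, biglycan, Bgn (chrX:73483602-73495933), was at 7, 4 and 5 and then at 11, 14 and 10 (log2 fold change 1.01, SE 0.34, adjusted p = 0.044). Its groups did not overlap, but the call was lost in 5 of the 6 fits that left out a library, all but the one without LNA Control replicate 1. It was lost in 10 of 15 alternatives in all, among them quantile normalization (0.58, adjusted p = 0.22). Vcan, or versican, was at 16, 34 and 33 and then at 21, 21 and 14 (log2 fold change -0.49, adjusted p = 0.24).

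Of the 12 ADAMTS proteinases tested, 1 was called higher and 1 lower. Adamts6 (chr13:104287835-104496695), a proteinase of the microfibril-associated branch, fell from 113, 160 and 159 to 73, 86 and 82 (log2 fold change -0.82, SE 0.13, adjusted p = 0.00071). Its closest relative Adamts10 was at 108, 113 and 105 and then at 84, 68 and 74 (log2 fold change -0.53, SE 0.11, adjusted p = 0.0035), which passed the test but not the fold. Adamts14 (chr10:61197112-61273438), a proteinase that trims the amino end of procollagens, rose from 1, 2 and 1 to 18, 11 and 12 (log2 fold change 2.65, SE 0.42, adjusted p = 0.00053). Its log2 fold change ranged from 1.54 with a pseudocount of 5 to 3.30 with one of 0.1. Adamts14 reached the mean of 5 through LNA Malat1, its control mean being under 5. Adamts2, the better expressed enzyme of the same function, fell from 65, 60 and 55 to 49, 39 and 43 (log2 fold change -0.45, adjusted p = 0.037) without a call. Per kilobase, Adamts2 went from 6.43 to 4.68, against 0.257 and 2.63 for Adamts14. Adamts17 fell from 100, 113 and 120 to 76, 84 and 98 (log2 fold change -0.37, adjusted p = 0.035).

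Among the aggrecanases and versican-cleaving enzymes, Adamts1, Adamts5 and Adamts9 were the abundant ones. Adamts5 rose from 875, 868 and 894 to 1042, 1014 and 1058 (log2 fold change 0.24, SE 0.05, adjusted p = 0.0030), while Adamts1, its neighbor on chr16, was at 563, 545 and 502 and then at 536, 511 and 504 (log2 fold change -0.05, adjusted p = 0.53). Their ratio, Adamts1 to Adamts5, did not overlap, at 0.643, 0.628 and 0.562 and at 0.514, 0.504 and 0.476. Adamts9 was at 1070 to 1170 and 1067 to 1075, with 9.18% of its exon bases under an antisense gene. Adamts4 (60 to 65 against 43 to 57) was lower in every Malat1 library without passing the test (adjusted p = 0.15). Adamts7, Adamts8 and Adamts15 overlapped between the groups.

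Of the 4 ADAMTS-like genes, whose products resemble ADAMTS enzymes without a proteinase domain, 2 were called. Adamtsl1 (chr4:85514172-86428385) rose from 18, 21 and 16 to 53, 37 and 49 (log2 fold change 1.28, SE 0.21, adjusted p = 0.00063). Adamtsl4 (chr3:95676201-95687917), which binds fibrillin microfibrils, rose from 43, 38 and 44 to 91, 70 and 94 (log2 fold change 1.00, SE 0.15, adjusted p = 0.00033). Both were called in every alternative in which they were tested. Adamtsl3 was at 393 to 430 and 437 to 460, and Adamtsl5 at 98 to 119 and 114 to 135, neither past the test.

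Of 16 MMP genes listed, 8 were tested and none was called or passed the adjusted p. Mmp14, a membrane-bound collagenase, was the most abundant, at 672, 584 and 585 and then at 572, 571 and 561 (log2 fold change -0.11, adjusted p = 0.21). Mmp15, a second membrane-bound enzyme, was at 315, 287 and 284 and then at 352, 320 and 323 (log2 fold change 0.17, adjusted p = 0.076). The groups of both were narrowly apart. The gelatinase Mmp9 was at 4 to 8 and 8 to 10, and Mmp17, Mmp11, Mmp28, Mmp23 and Mmp24 had log2 fold changes between -0.46 and 0.51.

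The genes that process, bind or accompany the matrix were read from 4 lists. Of 83 tested, 16 were called higher and 2 lower, against the same 8.00% and 2.92% of all genes, and their median log2 fold change was 0.02, as for all genes. Of the 16, 10 were among the 25 with a mean under 50 (18.1% of all genes of that level) and 6 among the 58 with a higher mean (3.05%). In 5 of the 83 the control mean was under 5, and 4 of these 5 were called higher. Of the 23 genes tested for collagen modification, folding, export and crosslinking, 2 were called higher and none lower. Plod1, a lysyl hydroxylase of collagen, rose from 157, 137 and 161 to 224, 232 and 231 (log2 fold change 0.59, adjusted p = 0.00014). Loxl4, a lysyl oxidase that crosslinks collagen, rose from 98, 105 and 97 to 175, 182 and 186 (log2 fold change 0.85, adjusted p = 1.2e-05). By the adjusted p alone 3 rose and 3 fell, the latter including P4ha1, a catalytic subunit of prolyl hydroxylase, from 908, 955 and 850 to 671, 712 and 671 (log2 fold change -0.40, adjusted p = 0.00025). The collagen chaperone Serpinh1 was at 1279 to 1539 and 1238 to 1323 (adjusted p = 0.11). Lox, Loxl1 and Tll1 were not listed.

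Among 23 receptors tested, 5 were called higher and none lower. All 5 were among the 8 receptors with a mean under 50, a level at which 18.1% of all genes were called higher. They were the integrin chains Itgb4 (7, 10 and 2, then 25, 19 and 19, with a log2 fold change of 1.77), Itga11 (3, 4 and 3, then 10, 16 and 10), Itgb6 (15, 7 and 6, then 24, 17 and 21) and Itga10 (26, 15 and 27, then 51, 42 and 54), and the syndecan Sdc3 (11, 12 and 10, then 18, 17 and 22, adjusted p = 0.049). Itga11 reached the mean of 5 through LNA Malat1, its control mean being under 5. Itga10 and Itga11 encode collagen-binding integrin chains. Of the 15 receptors with a mean of at least 50 none was called, and by the adjusted p alone 7 fell and 1 rose, against 19.7% and 12.2% of all genes of that level. The 1 that rose was the collagen receptor Ddr1, from 682, 660 and 640 to 759, 741 and 725 (log2 fold change 0.17, adjusted p = 0.027). Those that fell included Itgb1, the shared beta chain of collagen and laminin receptors, from 2596, 2659 and 2280 to 2149, 2221 and 2089 (log2 fold change -0.22, adjusted p = 0.026), and Itgb3, from 361, 320 and 362 to 252, 227 and 264 (log2 fold change -0.49, adjusted p = 0.00042). Dystroglycan, Dag1, was at 1680 to 2113 and 1841 to 1862 (adjusted p = 0.97). Itgb4, Col17a1 and Col7a1, which epithelial cells use for anchorage, were all called higher, while Lama3, Lamb3 and Itga6, of the same structure, were not. Itga6 was at 1192, 1171 and 1155 and then at 1006, 1031 and 1092 (log2 fold change -0.17, adjusted p = 0.027). These genes were set side by side after their values were seen.

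Of 5 proteinase inhibitors tested, Timp3 was called higher, from 7, 12 and 9 to 16, 18 and 22 (log2 fold change 0.95, adjusted p = 0.028). Timp2, the most abundant, was at 376 to 465 and 392 to 435. Of 32 other matrix genes tested, 8 were called higher and 1 lower, or 28.1%, against 10.9% of all genes tested. With a mean under 50, 4 of 13 were called higher, against 18.1% of all genes of that level. With a mean of at least 50, 4 of 19 were called higher and 1 lower, against 3.05% and 3.33%. Fbln2, a fibulin of basement membranes and elastic fibers, rose from 18, 15 and 16 to 72, 63 and 64 (log2 fold change 1.96, adjusted p = 6.8e-06). Fras1, of the epithelial basement membrane, rose from 418, 321 and 360 to 651, 636 and 659 (log2 fold change 0.83, adjusted p = 1.1e-05), while Frem1, of the same complex, fell from 540, 621 and 677 to 407, 361 and 464 (log2 fold change -0.58, adjusted p = 0.00067) without a call. The matricellular genes Ccn1 (0.67), Ccn2 (0.64) and Ccn4 (0.63) were called higher by these log2 fold changes, each without overlap. Ccn1 went from 193, 192 and 218 to 327, 310 and 325. Efemp2, Ltbp2 and Npnt were called from control levels of 0 to 4, so they too reached the mean of 5 through LNA Malat1. Aspn, a small leucine-rich proteoglycan, was called lower, from 77, 72 and 120 to 44, 43 and 57 (log2 fold change -0.86, adjusted p = 0.0047). Perlecan, Hspg2, was at 2379 to 3792 and 2567 to 3270 (adjusted p = 0.92), and Emilin1 fell from 1086, 1075 and 996 to 752, 742 and 800 (log2 fold change -0.46, adjusted p = 6.7e-05) without a call.

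**Figure D5:**
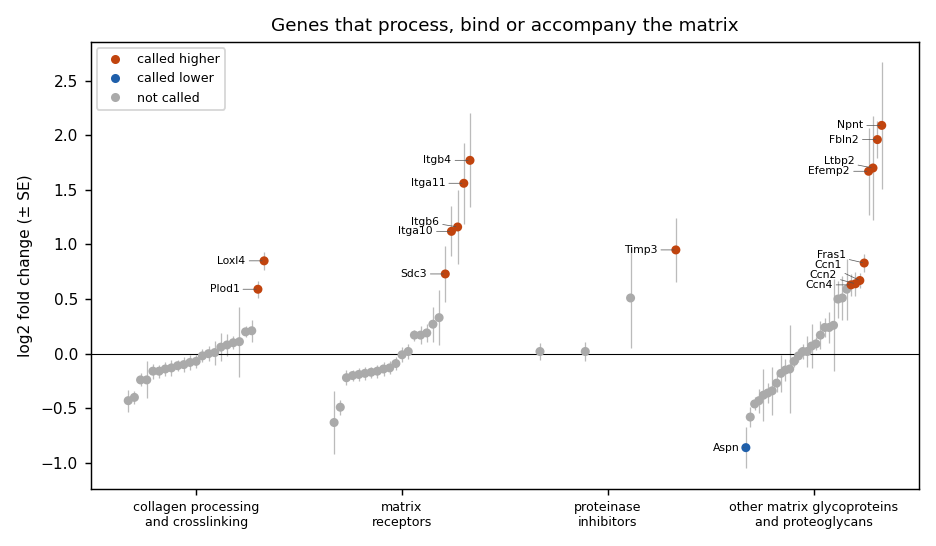
Log2 fold change of normalized count + 1 (± SE from limma, 3 libraries per group) for 82 tested genes of the 4 partner lists, in ascending order within each list. Red points were called higher, blue points lower, and the called genes shown are named. The called receptors all lie above zero, between Sdc3 and Itgb4.

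With LNA Malat1 replicates 1 and 3 counted as 1 sample, 9 matrix genes were called higher and 3 lower. Bgn, Col20a1, Col5a3 and Col14a1 lost their calls, and Lamc3, Adamts14, Col17a1, Adamtsl1, Col9a3, Col7a1, Adamtsl4, Col2a1, Adamts6, Col6a1 and Col6a2 kept theirs.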

How the data were processed

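RNA of HL-1 cells was sequenced from 3 LNA Control and 3 LNA Malat1 libraries, and groups follow the sample labels. By the methods of the study, the authors trimmed reads with Trimmomatic 0.39, aligned them to mm10 with STAR 2.7.7a and counted reads on exons per gene with featureCounts 1.6.5, leaving out reads on several genes or regions. The deposited values are a score, not raw counts, namely counts that the authors divided by one factor per library (DESeq2 1.30.0 is named) and then rounded. The text calls them normalized counts. Depth was recovered from the gaps that rounding leaves, and intervals from it would cover counting error only. Use of strand in the counting is not given in the sources used here. The table also holds the authors' comparison columns, which were not used.

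All 6 libraries entered one fit in limma 3.58.1 (R 4.3.3) with an intensity trend, made on log2(normalized count + 1) for the 15650 genes whose mean was 5 or more. Tests were two-sided with Benjamini-Hochberg adjustment over those genes. A call required a 1.5-fold change or more and an adjusted p not above 0.05. The script was tested on simulated data. Ratios were tested with exact permutation (scipy 1.17.1). The members and lists were chosen with earlier results of these data known. Named singly by rule were Malat1, called members, the 10 members with the highest mean, collagen IV, laminin and nidogen genes, genes at the mean minimum, called partner genes and defining markers. Other genes given with values account for the remaining members or were singled out after their values were seen, among them Col12a1, Col5a2, Col8a1, Adamts10, P4ha1, Itgb1, Itgb3, Frem1 and Emilin1. Exonic lengths and exon overlaps are from GENCODE M21 (72 of 72 members and 21224 of 21269 genes matched). Values of 2 genes are not reported here, though both enter the counts. Positions are those of the deposited table (mm10, counted from 1). Alternatives were the replicate block, other pseudocounts, scalings and filters, no fold minimum, voom, 1 sample for LNA Malat1 replicates 1 and 3, and leaving out each library.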

Additional observations from a re-analysis of the deposited data

How the results depend on the processing

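The 1252 genes called higher and 457 called lower became 748 and 718 under quantile normalization, and 2231 and 2195 with no fold minimum. With a mean of at least 50, 317 were called higher, and 831 when replicates 1 and 3 of LNA Malat1 were merged. Leaving out each library gave 810 to 1582 higher (810 without LNA Malat1 replicate 1, 812 without replicate 3) and 406 to 475 lower. Of the matrix genes (12 higher and 4 lower), 3 were higher with a mean of at least 50, where 9 of the 12 are not tested. Under quantile normalization 7 were lower, with no fold minimum 14, and without LNA Control replicate 3 only 2. Leaving out each library gave 8 to 13 higher, with the fewest without LNA Malat1 replicate 1, and 2 to 5 lower. Of the partner genes (16 higher and 2 lower), 9 were higher and 4 lower under quantile normalization and 6 and 1 with a mean of at least 50. With no fold minimum 17 were lower, and leaving out each library gave 9 to 15 higher and 1 to 3 lower (9 higher without LNA Malat1 replicate 1, 10 without LNA Control replicate 2 or LNA Malat1 replicate 3, and 1 lower without LNA Malat1 replicate 1 or 2). Signs turned for genes near zero: Sparc (0.00) and Lamb3 (-0.08) under quantile normalization, Nid2 without LNA Control replicate 3 (-0.00, and 0.22 without replicate 1), and Lamb2 with merged replicates (-0.01) and without single libraries (-0.09 to 0.09). Over 33 genes and their 516 values under an alternative, 460 kept direction and side of the threshold, 41 lost the call, 8 gained one and 7 turned. The cause was not tested. Deviations of same-numbered libraries correlated at 0.086, 0.182 and 0.083 between the groups. The LNA Malat1 libraries differed by little more than sampling noise, so these values cannot decide whether the replicate numbers pair the libraries. Blocking on the replicate number, 11 matrix genes were higher and 4 lower, Bgn losing its call (adjusted p = 0.059), and over all genes 1297 were higher and 442 lower. For 10 of the 16 called matrix genes the mean was under 50, so depth limits how firmly their folds are known.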

Other observations

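Beyond the genes above, 170 tested genes carry the extracellular matrix or basement membrane term of Gene Ontology in the deposited annotation. They were looked at after the other results were known, and no test was made of the group. Of these, 13 were called higher and 5 lower, or 10.6%, against 10.9% of all genes tested, and their median log2 fold change was -0.01. Olfml2a, an olfactomedin-like glycoprotein, was at 9, 12 and 14 normalized counts in LNA Control libraries and at 89, 100 and 98 in LNA Malat1 libraries (log2 fold change 2.95, SE 0.19, adjusted p = 6e-07). Cpz, a carboxypeptidase that binds Wnt proteins, was at 17, 12 and 19 and then at 77, 59 and 56 (log2 fold change 1.94). The Wnt ligand genes Wnt7b (13, 18 and 15, then 62, 44 and 47) and Wnt9a (90, 80 and 88, then 162, 157 and 153) were called higher, and Wnt4 (27, 34 and 38, then 13, 24 and 13) was called lower. Gpc3, a glypican, was at 10, 10 and 6 and then at 24, 22 and 30 (log2 fold change 1.47). Tgfbr3, the coreceptor betaglycan, was the most abundant gene called lower, at 249, 254 and 264 and then at 143, 160 and 150 (log2 fold change -0.76, adjusted p = 1e-05). Hpse2, a relative of heparanase, was at 28, 33 and 27 and then at 8, 9 and 16 (log2 fold change -1.39). In each of these 8 genes the libraries of LNA Malat1 and LNA Control did not overlap. The genes were picked because they were called, so this adds no support. Among the 170 genes, 59 did not overlap (34.7%), against 41.3% of all genes tested.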
